A study of Mus musculus with 6 samples.

Results

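The cells described here are 1357 pericytes of mouse cerebral cortex after sham surgery, taken from the brain sham library of a single-cell RNA series and chosen by their own transcripts. A member had at least 500 detected genes and at most 10% mitochondrial UMIs (unique molecular identifiers, each a counted RNA molecule). It carried at least 3 of the 6 pericyte markers Kcnj8, Abcc9, Vtn, Higd1b, Atp13a5 and Pdgfrb. It also had fewer than 5 UMIs of the smooth muscle genes Acta2 and Myh11 per 10000, at most 1 UMI of the endothelial genes Cldn5 and Cdh5, and no UMI of the leukocyte gene Ptprc. Members made up 51.3% of the 2646 kept cells of this library (exact Clopper-Pearson 95% interval 49.4% to 53.2%), where kept means that a cell passed the limits on genes and mitochondrial UMIs. The whole series holds 37323 kept cells among 44766 barcodes. The members are set against the other 1289 kept cells of the same library, and because the rule reads the counts of these same cells, those differences are a description with no test.

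All 6 libraries came from Tbx18CreER/+;Rosa26tdT/+ mice, in which Cre recombinase made from the Tbx18 locus switches on the red fluorescent protein tdTomato once tamoxifen is given. Tamoxifen was injected over 4 days and a week passed without it, and dissociated cells were then sorted for tdTomato. The brain peri-infarct and brain infarct libraries hold cells from around and within a photothrombotic stroke, against brain sham cells from the cortex after sham surgery. The heart peri-infarct and heart infarct libraries come from hearts whose left anterior descending artery was ligated, against heart sham cells from ventricles after sham surgery. Each group is 1 library, the labels give neither the animals per library, their age nor the time after surgery, so the differences given here lack a check by replicates.

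Pericytes are the mural cells of capillaries, embedded in a basement membrane that they share with the endothelium. Endothelial cells recruit them through the receptor Pdgfrb, and in the brain they are needed for a tight blood-brain barrier. They differ from arteriolar smooth muscle in carrying little contractile protein, and Kcnj8 and Abcc9 encode the pore and the regulatory subunit of an ATP-sensitive potassium channel known from vascular mural cells.

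Kcnj8 (ENSMUSG00000030247, mm10 chromosome 6, 142564837 to 142571614) and Abcc9 (ENSMUSG00000030249, chromosome 6, 142587862 to 142702315) lie next to each other on the minus strand and were both among the leading genes of these cells. Up to 250 bases before the annotated start of these 2 genes are shown with those of Nodal and of Vtn, the most abundant of the 6 markers, from the RefSeq table of build GRCm38.p6, read 5′ to 3′ on the strand of the gene. The RefSeq start lies 41 bases inside the gene position given here for Abcc9 and 29 bases inside that for Vtn, which are from GENCODE, so only the 209 and 221 bases before both starts are printed. Capitals mark matches, on either strand, to the letters AGGTGTG of T-box factors, TGTTTAC of forkhead factors, GTGGGAA of the Notch effector RBPJ, or the TATA letters TATAAA.
Kcnj8, chr6:142571615-142571864, minus strand: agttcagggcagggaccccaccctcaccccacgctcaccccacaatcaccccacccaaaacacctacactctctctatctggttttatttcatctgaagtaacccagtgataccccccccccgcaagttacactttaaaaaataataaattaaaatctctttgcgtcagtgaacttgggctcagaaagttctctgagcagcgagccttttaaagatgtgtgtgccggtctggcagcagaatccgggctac
Abcc9, chr6:142702316-142702524, minus strand: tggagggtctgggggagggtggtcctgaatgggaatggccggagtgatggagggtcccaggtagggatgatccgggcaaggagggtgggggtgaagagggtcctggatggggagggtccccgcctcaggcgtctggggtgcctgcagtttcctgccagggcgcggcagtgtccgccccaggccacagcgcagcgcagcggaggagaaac
Nodal, chr10:61417722-61417971, plus strand: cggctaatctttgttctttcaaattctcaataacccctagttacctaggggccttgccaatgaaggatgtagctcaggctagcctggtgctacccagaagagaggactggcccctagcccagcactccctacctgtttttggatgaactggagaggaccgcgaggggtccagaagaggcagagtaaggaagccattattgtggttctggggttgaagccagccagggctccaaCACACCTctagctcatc
Vtn, chr11:78498870-78499090, plus strand: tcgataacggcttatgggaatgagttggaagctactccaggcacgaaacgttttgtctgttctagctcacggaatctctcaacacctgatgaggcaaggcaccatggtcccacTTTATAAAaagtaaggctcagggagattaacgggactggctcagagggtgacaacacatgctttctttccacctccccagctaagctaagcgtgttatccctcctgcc
The Nodal stretch holds the T-box letters on the minus strand, and the Vtn stretch holds the TATA letters on both strands, where the 2 matches overlap. Neither stretch of the potassium channel genes holds any of the 4 motifs, although they differ in base composition, with 49.2% G and C for Kcnj8 and 68.4% for Abcc9. Of the 20 leading genes named below, 18 were in the table, and 3 of these held the T-box letters before at least 1 annotated start (Ggt1, Nodal and P2ry14). Over all 27025 genes of the table the T-box letters stood before 5.88%, the forkhead letters before 3.54%, the RBPJ letters before 6.18% and the TATA letters before 14.3%. Among the 18 genes the forkhead letters were found for 1, the RBPJ letters for 2 and the TATA letters for 5, so these are descriptions of letters in a window.

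The brain sham library held 2808 barcodes and 12311632 UMIs, and pericytes had a median of 2800 UMIs per cell, against 4929 in the other kept cells. The other cells comprised 302 smooth muscle, 316 endothelial, 201 fibroblast and 32 macrophage rule cells, each named from at least 3 markers of its type, and 438 that met no rule or several. Of those 438 cells, 212 had at least 3 pericyte markers and 181 of these 212 had more than 1 UMI of Cldn5 and Cdh5, so the comparison cells hold pericyte RNA too. The macrophage rule cells, under the minimum of 50, were not summed on their own. Of the 1357 member barcodes, 22 also occurred in another library. Tbx18 itself, whose locus drives the label, stood at 156 CPM (UMIs scaled to a total of 1000000 over the summed cells) in pericytes and 92.1 CPM in the other kept cells.

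Members differed in the number of markers detected, which the rule itself uses, and genes outside the rule were compared by that number. All 6 markers were detected in 1080 cells (79.6%), 5 in 173, 4 in 39 and 3 in 65 cells (4.79%). The 65 cells with 3 markers, of which 45 carried Vtn, Atp13a5 and Pdgfrb, had 30.1 CPM of Kcnj8 and 10.0 CPM of Abcc9, against 1560 and 2051 CPM in the 1292 cells with 4 or more. Rgs5, a mural marker outside the rule, stood at 261 CPM in the cells with 3 markers and 9203 CPM in those with more. At least 3 of 6 fibroblast markers (Col1a1, Col1a2, Dcn, Lum, Pdgfra and Slc6a13) were detected in 56 of the 65 cells (86.2%), against 19 of the 1292 (1.47%). The summed level of these fibroblast markers was 10290 CPM in the 65 cells and 420.5 CPM in the 1292 cells, and the genes highest in the 65 over the rest of the members were Itga3, Spo11, Bmp7, Lum, Col15a1 and Enpp1. Cells with 4 markers lay between, with 489 CPM of Col1a1 and 5128 CPM of Rgs5 in the 39 cells, beside 10.4 and 8429 CPM at 5 markers and 6.37 and 9399 CPM at 6. The 65 cells thus met the rule while going against its label, and results that rest on them are given also for the 1292 cells with 4 or more markers, a set that still holds the 39.

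**Figure D1:**
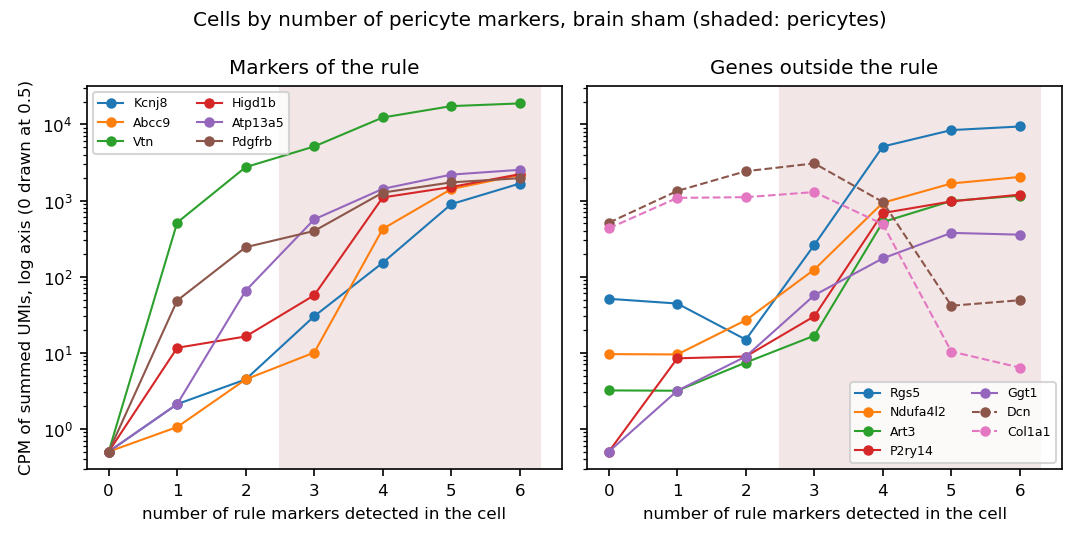
Level of the rule's markers (left) and of genes outside the rule (right), in CPM on a log axis, by the number of rule markers detected in brain sham cells that met the other limits; the shaded range holds the pericytes. Rgs5 stood at 261 CPM at 3 markers and 9399 CPM at 6, while the fibroblast genes Dcn and Col1a1 (dashed) were highest at 3 markers, at 3076 and 1292 CPM.

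Just outside the marker limit, the 110 cells with 2 markers had 4.45 CPM of Kcnj8, 14.8 CPM of Rgs5 and 2428 CPM of Dcn. At the smooth muscle limit the step was smaller. The 113 members with some Acta2 or Myh11 had 1428 CPM of Kcnj8 and the 45 cells just above the limit, at 5 to under 10 UMIs per 10000, had 1402 CPM. At the endothelial limit, the 82 members with 1 UMI of Cldn5 or Cdh5 had 714 CPM of Kcnj8, and the 22 cells with 2 such UMIs, outside the rule, had 672 CPM.

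Markers of other cell types were low in the members but not at 0. The 7 endothelial markers summed to 242 CPM in pericytes and 3911 CPM in the other kept cells, the 7 microglia and macrophage markers to 49.4 and 738 CPM, and the 6 smooth muscle markers to 1679 and 6928 CPM. Most of the smooth muscle sum came from Myl9, at 1517 CPM in pericytes. The 6 astrocyte markers summed to 218 CPM in pericytes and 448 CPM in the other cells, led by Slc1a2 at 150 CPM in pericytes, while the defining Aqp4 and Gfap stood at 1.89 and 0.709 CPM. Slc1a2 was seen in 6.49% of pericytes thinned to 1000 UMIs (8.70% unthinned) and in 6.60% of endothelial rule cells (9.81% unthinned), which is no more than this endothelial share. Over smooth muscle rule cells its log2 ratio was 2.24, so the endothelial share is not the level of every other class. The 4 red blood cell markers summed to 1144 CPM in pericytes and 6222 CPM in the other cells, and the 4 ependymal and choroid markers were all at 0 in pericytes. The part of these other cell types in the results below was not tested.

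The members' own transcripts were led in abundance by a nuclear RNA and a few secreted and membrane proteins. Malat1, the nuclear RNA, took 6.45% of their UMIs and 4.65% of those of the other kept cells. Vtn (ENSMUSG00000017344, chromosome 11, 78499091 to 78502324), which encodes the adhesive glycoprotein vitronectin, had 74647 UMIs or 17647 CPM in pericytes, against 2342 CPM in the other cells. The secreted growth factor Ptn stood at 11383 CPM, against 3082, and the G-protein regulator Rgs5 at 8572, against 2142 CPM. The prostaglandin D synthase Ptgds, at 7081 CPM in all members, stood at 84126 CPM in the 65 cells with 3 markers and 1226 CPM in the others, so it was not among the most abundant genes of cells with 4 or more markers. The cytoskeletal and secreted products Tmsb4x (6022 CPM), Igfbp7 (5151), Actb (5027), Itm2b (3578), Sparcl1 (3093) and Cald1 (2899) were also among the 12 most abundant genes. UMIs are counted at the 3′ end and do not scale with transcript length.

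Against the other kept cells, 3964 genes averaged 50 CPM or more over both classes, of which 475 (12%) were at least 2-fold higher in pericytes and 388 (9.79%) at least 2-fold lower. The rule used counts of these same cells, so nothing is read from these shares. With edgeR TMM factors in place of library totals the counts were 414 higher and 439 lower, and the median log2 ratio of all genes was 0.04, against 0.15 with library totals.

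The 20 genes with the highest ratios covered a channel, a set of receptors and several enzymes. Nts, the precursor of the neuropeptide neurotensin, had 650 UMIs or 154 CPM in pericytes and 13.4 CPM in the other kept cells, the highest log2 ratio at 3.42 (10.7-fold, Poisson interval of the ratio 9.28 to 14.2). It was a trait of few cells, seen in 9.32% of 1341 pericytes thinned to 1000 UMIs (17.1% unthinned) and in 0 of 303 thinned endothelial rule cells. The pore subunit Kcnj8 had 6140 UMIs or 1452 CPM, against 143 CPM (10.1-fold, 9.52 to 10.8). Its partner Abcc9 had 8066 UMIs or 1907 CPM, against 203 CPM (9.37-fold, 8.92 to 9.94). Both subunits are genes of the rule, and they stood higher by a similar factor.

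A Kcnj8 UMI was seen in 69.4% of the thinned pericytes (66.9% to 71.9%; 16 shallower cells left out; 88.7% unthinned) and in 0.330% of the thinned endothelial rule cells (0.949% unthinned), at median depths of 2800 and 3316 UMIs. The shares were 75.5% and 1.98% for Abcc9, 86.7% and 1.32% for Atp13a5, and 99.6% and 12.2% for Vtn. The endothelial share of Vtn was the largest of these 4, next to its high level in pericytes. Rgs5 was seen in 95.3% of thinned pericytes but also in 60.4% of endothelial rule cells and stood at 1598 CPM in these endothelial cells. It was at 13.9 CPM in fibroblast rule cells.

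Atp13a5 (ENSMUSG00000048939, chromosome 16, 29231851 to 29378732), a P-type ATPase, had 9896 UMIs or 2339.5 CPM, against 263 CPM (8.85-fold, 8.47 to 9.32). Among enzymes outside the rule, Ggt1, which cleaves glutathione at the cell surface, stood at 333 CPM, against 33.0 (9.80-fold, 8.81 to 11.5). Uchl1, a ubiquitin hydrolase better known from neurons, stood at 369 CPM, against 37.8 (9.54-fold, 8.62 to 11.1). The phospholipase Pla1a stood at 313 CPM, against 36.9, and Art3, of the ADP-ribosyltransferase family, at 1048 CPM, against 125. The cyclic AMP phosphodiesterase Pde8b (589 CPM, against 78.9), the Ras-like GTPase Rem1 (242, against 29.8) and the acyltransferase Mboat2 (153, against 19.98) were also among the 20.

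Nodal (ENSMUSG00000037171, chromosome 10, 61417972 to 61425338), a TGF-beta family ligand best known from the early embryo, had 822 UMIs in pericytes, or 194 CPM, and 20.6 CPM in the other kept cells (9.03-fold, 7.95 to 11.2). It was seen in 18.1% of thinned pericytes (39.1% unthinned) and 0.330% of endothelial rule cells. The remaining leading genes included the metabotropic glutamate receptors Grm7 (101 CPM, against 12.4) and Grm3 (141, against 18.7). The interferon-induced membrane protein gene Ifitm1 stood at 1532 CPM, against 214, and Tlr12, a Toll-like receptor gene of the mouse, at 101 CPM, against 13.7. Pth1r, the parathyroid hormone receptor, was chosen after its values were seen and stood at 703 CPM, against 101 CPM.

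**Figure D2:**
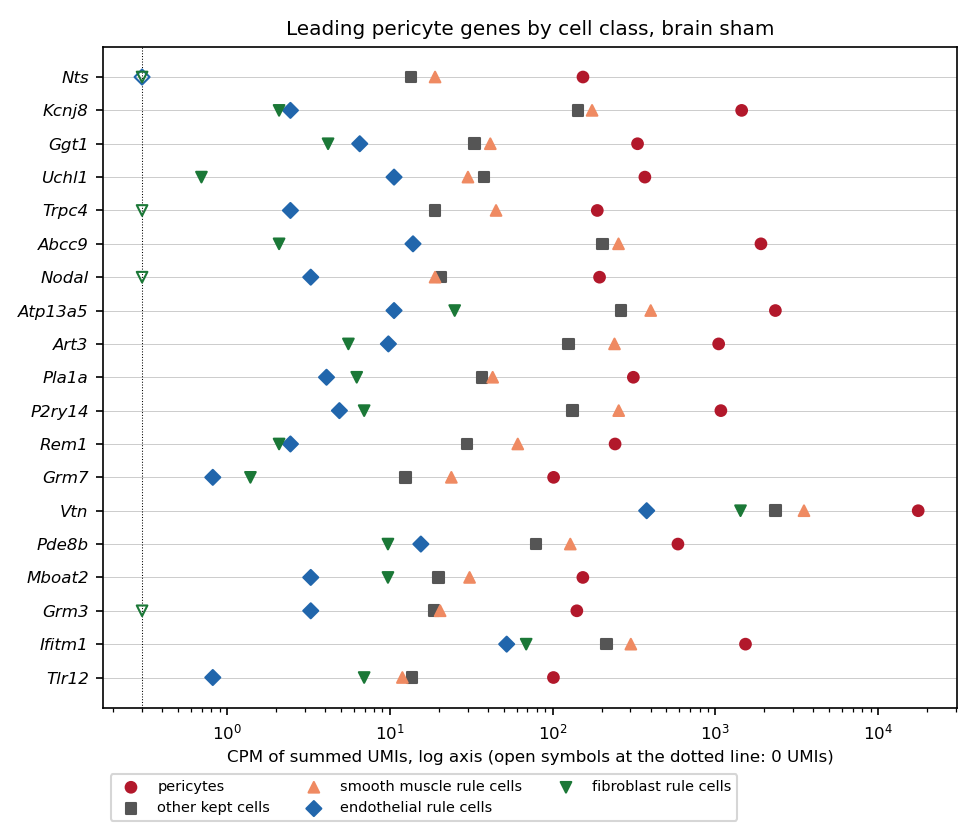
CPM of leading genes (log axis) in brain sham pericytes, other kept cells, and smooth muscle, endothelial and fibroblast rule cells; open symbols on the dotted line mark 0 UMIs. Pericytes stood highest for every gene shown, and smooth muscle rule cells stood above endothelial and fibroblast rule cells for each of these genes, as for Kcnj8 at 1452, 143 and 175 CPM in pericytes, other kept cells and smooth muscle rule cells.

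The lowest ratios belonged to genes of the cell types that the rule left out. Acta2 (12.8 CPM, against 2383), Tagln (20.1, against 2120.0) and Pln (0.709, against 162) are smooth muscle genes, and Cldn5 (9.22, against 611) is endothelial. Lyz2, Fcer1g, C1qa, C1qb and C1qc are macrophage genes, with C1qa at 2.60 CPM in pericytes and 263 CPM in the other kept cells. Penk, the proenkephalin gene, stood at 4.02 CPM, against 380.3, and was highest in fibroblast rule cells at 632 CPM. Acta2, Cldn5 and Ptprc were limited by the rule itself.

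In a list of other known pericyte genes, 19 of 20 were at least 2-fold higher in pericytes and 1 lower, with a median log2 ratio of 2.21 beside 0.15 for all genes tested. Over all tested genes 12% were higher and 9.79% lower, the shares that stand beside every list count against the other kept cells below. The filter takes the mean of both classes. Of the 20, 2 passed it only through the pericytes and 1 only through the other kept cells. The list was chosen with earlier results of these cells known. Rgs5 and its neighbour on chromosome 1, Rgs4, stood at 8572 and 2343 CPM, against 2142 and 492. The proteoglycan Cspg4 (713 CPM, against 157), the aminopeptidase Anpep (254, against 77.7) and Cd248 (360.3, against 85.3) are surface proteins used to recognise pericytes. The lower gene was Nrp1, the semaphorin and VEGF co-receptor, at 35.7 CPM, against 93.1.

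**Figure D3:**
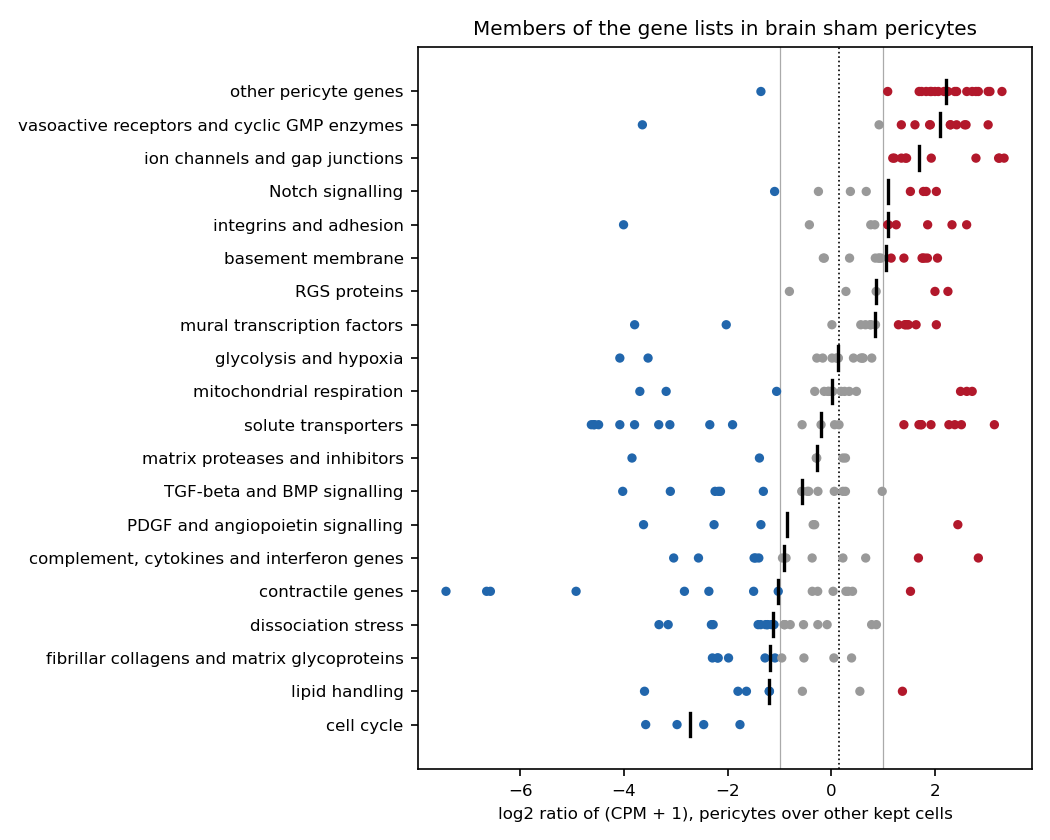
Log2 ratio of (CPM + 1), pericytes over other kept cells, of the tested members of 20 gene lists; each point is a gene, red at least 2-fold higher, blue at least 2-fold lower, black bars the list medians, the dotted line the median of all genes. The other pericyte genes have the highest median at 2.21 and the cell cycle genes the lowest at -2.72. The 4 tested cell cycle genes passed the filter only through the other kept cells.

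All 10 tested members of the ion channel list were at least 2-fold higher, beside 12% of all genes (median log2 ratio 1.69). Kcnj8 and Abcc9, among the 10, are genes of the rule, so their part of the count was fixed by the choice of cells. This count leans on the filter, since 3 of the 10 were under 50 CPM in the other kept cells and the remaining 9 members averaged under 50 CPM. The receptor-operated cation channel Trpc4 stood at 188 CPM, against 19.0. The gap junction proteins Gjc1 (795 CPM, against 208) and Gja4 (380 CPM, against 140) couple vascular cells electrically. The calcium-activated chloride channel Ano1 (283, against 103), the calcium channel Cacna1c (108, against 45.9) and the calcium release channel Itpr1 (235, against 103) were higher as well. The inward rectifier Kcnj2, typical of capillary endothelium, had 3 UMIs in all pericytes, or 0.709 CPM, and 25.9 CPM in the other kept cells.

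Of 12 tested vasoactive receptors and cyclic GMP enzymes 10 were higher and 1 lower, beside 12% and 9.79% of all genes (median 2.10). Of these, 3 passed the filter only through the pericytes (Adora2a, F2r and Prkg1), and the untested natriuretic peptide receptors Npr3 and Npr1 stood at 2.60 and 2.13 CPM, against 76.6 and 9.35. P2ry14, the receptor for UDP sugars, stood at 1082 CPM, against 132. The thromboxane receptor Tbxa2r (330.3, against 53.7), the sphingosine phosphate receptor S1pr3 (433, against 80.3), the adenosine receptor Adora2a (172, against 28.1), the thrombin receptor F2r (104, against 20.4) and the endothelin receptor Ednra (274, against 72.8) were each at least 2-fold higher. Ednrb and the angiotensin receptor Agtr1a were near 0, at 7.33 and 0.946 CPM in pericytes. The nitric oxide receptor subunits Gucy1b1 and Gucy1a1 stood at 1049 and 436 CPM, against 213 and 142, and the cyclic GMP-dependent kinase Prkg1 at 94.3 CPM, against 36.4. The lower member was S1pr1, an endothelial receptor, at 17.3 CPM, against 228.

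Of 17 tested nuclear-encoded mitochondrial genes 3 were higher and 3 lower, beside 12% and 9.79% of all genes, and the median was 0.02 (-0.08 with TMM factors). Cox4i2, the oxygen-regulated form of a cytochrome oxidase subunit, stood at 951 CPM in pericytes, against 144 in the other kept cells, whereas the common form Cox4i1 was within 2-fold at 382 CPM, against 477. Ndufa4l2, a homologue of Ndufa4 known as a hypoxia-induced gene, stood at 1848 CPM, against 301, whereas Ndufa4 stood at 50.4 CPM, against 664. Ndufa4 was lower still, at 29.5 CPM, in members with 4 or more markers, and stood at 325 CPM in the 65 cells with 3. Higd1b, a marker of the rule, stood at 1977 CPM, against 350.2, and its homologue Higd1a at 94.3 CPM, against 197. Cox8a (1393 CPM, against 1374), Cox7a2 and Atp5b were within 2-fold. In the glycolysis and hypoxia list 0 of 13 members were higher and 2 lower, Slc2a1 and Ndrg1, both high in endothelial cells, and the median was 0.13. Both lower genes passed the filter only through the other kept cells.

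Of 15 tested mural transcription factors 7 were higher and 2 lower (median 0.85). Of the 15, Foxf2 and Foxs1 passed the filter only through the pericytes. Zic1, a zinc finger factor of the nervous system and its coverings, stood at 1088 CPM, against 393, and Ebf1 at 1024, against 383. Tbx2 (231, against 81.6), the forkhead factors Foxf2 (143, against 45.2) and Foxs1 (128, against 46.9), the Notch target Heyl (230.0, against 55.7) and Nr2f2 (578, against 235) made up the rest. Foxd1, Foxc1 and Tbx18 were within 2-fold, with Foxd1 at 530 CPM, against 335. The lower factors were the flow-responsive Klf2, at 121 CPM, against 1691, and Nfib, at 63.6 CPM, against 262. In the Notch list 4 of 8 members were higher, 1 lower and the median was 1.10. Of the 8, Hey2 passed the filter only through the pericytes. The mural receptor Notch3 stood at 856 CPM, against 240, Notch1 at 360.3, against 104, and Hey2 at 134, against 46.0. Notch2 was the lower member, at 79.9 CPM, against 172.

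Growth factor signalling between pericytes and endothelium was measured by its receptors and ligands. Pdgfrb stood at 1819 CPM in pericytes, against 334 in the other kept cells, and its ligand gene Pdgfb at 8.75 CPM, against 75.6, with 247 CPM in endothelial rule cells. The angiopoietin genes Angpt1 and Angpt2 were low, at 13.9 and 6.38 CPM, against 30.6 and 32.9. Flt1 and Kdr, receptors for VEGF, were lower, with Flt1 at 137 CPM, against 661. Pdgfra stood at 72.1 CPM in all members, but at 900.4 CPM in the 65 cells with 3 markers and 9.16 CPM in the others. The list as a whole had 1 of 6 tested members higher, 3 lower and a median of -0.85, which was -1.71 in members with 4 or more markers. The higher member was Pdgfrb, a gene of the rule. Of the 6, 2 passed the filter only through the other kept cells.

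Genes of TGF-beta and BMP signalling had no member among 15 tested that passed 2-fold upward and 6 that passed it downward, with a median of -0.56. Of the 15, 4 passed the filter only through the other kept cells. The lower members included the BMP targets Id1 (52.2 CPM, against 458), Id2 (6.38, against 119) and Id3 (329, against 1452), the inhibitor Smad7 (31.4, against 79.5) and the endothelial receptor Acvrl1 (24.1, against 118). Tgfb1 (120.1 CPM, against 60.3) and Tgfbr2 (99.5, against 119) were within 2-fold.

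Of 14 tested basement membrane genes 7 were higher and 0 lower (median 1.06), and the other 7 were within 2-fold, among them Sparc and Col15a1. Of the 14, Lamb1 passed the filter only through the pericytes. The laminin chains Lamc1 (794 CPM, against 191), Lama2 (331, against 90.8), Lamc3 (309, against 87.7), Lama4 (252, against 74.0) and Lamb1 (118, against 34.1), the linker Nid1 (397, against 150) and the collagen chain Col4a1 (525, against 235) passed 2-fold. Of the integrin and adhesion genes 6 of 10 were higher, among them Itga1, a collagen receptor chain, at 1042 CPM, against 287, Itga4 at 301, against 48.4, and the neural cadherin Cdh2 at 133, against 25.7. Of the 10, 3 were under 50 CPM in the other kept cells and passed the filter only through pericytes, Itga4 and Cdh2 among them. Cdh5 was lower, as the rule required. Of 10 tested fibrillar collagen and matrix glycoprotein genes 0 were higher and 6 lower (median -1.18, and -2.06 in members with 4 or more markers). Col1a1 stood at 108 CPM in all members, against 534 in the other kept cells, but at 1292 CPM in the 65 cells with 3 markers and 18.1 CPM in the others. Of its 457 UMIs in members, 386 lay in the cells with 3 markers and 45 in the 39 cells with 4. Col1a2 (363 CPM, against 773), Dcn (282, against 686), Fn1 (94.3, against 437) and Mgp (753, against 3422) were lower as well, while Col3a1 (80.4, against 157) and Col5a2 (53.2, against 51.4) were within 2-fold. A Col1a1 UMI was seen in 3.51% of thinned pericytes (5.38% unthinned), and in 4.62% of endothelial rule cells (7.59% unthinned).

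Solute transporters split by cell type, with 9 of 23 tested members higher and 10 lower (median -0.20). Atp13a5, among the higher, is a gene of the rule. Of the 23, 8 passed the filter only through the other kept cells. Higher were the proline transporter Slc6a20a (964 CPM, against 199), the folate transporter Slc19a1 (775, against 148), the manganese exporter Slc30a10 (408, against 70.8), the organic anion transporter Slc22a8 (547, against 207), the amino acid transporter Slc38a11 (584, against 174), the ion cotransporter Slc12a2 (799, against 247) and the sodium pump subunit Atp1b2. Lower were barrier genes of the endothelium such as the glucose transporter Slc2a1 (31.9 CPM, against 556), the efflux pumps Abcb1a (17.7, against 420.1) and Abcg2 (52.5, against 463), the large amino acid carrier Slc7a5 (17.0, against 180.3) and Slco1c1 (12.8, against 340.1). Slc1a3 stood at 174 CPM in all members and 76.6 CPM in those with 4 or more markers, against 157 in the other kept cells, and Slc6a13 at 227 and 93.1 CPM, against 218.

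Lipid handling genes were mostly lower, with 1 of 8 higher and 5 lower (median -1.20, and -2.28 with 4 or more markers). Apoe stood at 1030.0 CPM, against 3594, and Apod at 720.3 CPM, against 1061, although Apod stood at 163 CPM in members with 4 or more markers. Of 12 tested complement, cytokine and interferon genes 2 were higher, Ifitm1 and the macrophage growth factor Il34 (478 CPM, against 148), and 5 lower, among them Cxcl12 at 390 CPM, against 1029 (median -0.91). Of the cell cycle list 4 of 15 members were tested and all 4 were lower, namely Stmn1 (25.5 CPM, against 145), the cyclin gene Ccnd2 (38.8, against 134) and the cell cycle inhibitors Cdkn1a (11.6, against 150) and Cdkn1c (49.4, against 396). All 4 were under 50 CPM in pericytes and passed the filter only through the other kept cells, so their direction leans on the filter. The untested division genes Mki67 and Top2a were near 0 in both classes, at 0 and 0.236 CPM, against 2.18 and 0.384, and Pcna stood at 41.6 CPM, against 40.6. The matrix protease and inhibitor list had 0 of 6 higher and 2 lower, Timp2 and Adamts1, and the RGS list 2 of 5 higher, Rgs4 and Rgs5, with medians of -0.29 and 0.87.

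Smooth muscle rule cells are the other mural class of the library, and their rule set no limit on pericyte markers. The 6 pericyte markers summed to 5976 CPM in them, against 27141 CPM in pericytes. Of the cells with at least 3 pericyte markers that met the endothelial and Ptprc limits, 200 had Acta2 and Myh11 at 10 or more UMIs per 10000. Another 45 had 5 to under 10. The 2 classes thus overlap in markers, and the part of this in the ratios was not tested. Among 3793 tested genes 453 (11.9%) passed 2-fold upward in pericytes and 288 (7.59%) downward. These shares stand beside every list count against smooth muscle below. How many list members passed the filter through 1 class alone was not counted for this comparison. With TMM factors the split was 269 higher and 422 lower, and the median log2 ratio of all genes was -0.07, against 0.21 with library totals, so directions near 0 depend on the scaling. Contractile genes were lower in 13 of 16 tested members, with a median of -2.94, but Acta2, Myh11, Tagln, Myl9 and Tpm2 among them are markers that chose the smooth muscle rule cells. All 6 markers of the pericyte rule were at least 2-fold higher than in smooth muscle (median 2.44), but these markers chose the pericytes, so this is no finding. Of 19 other pericyte genes 10 were at least 2-fold higher, with a median of 1.14. The largest differences were Acta2, at 12.8 CPM in pericytes, against 11984 (-9.77), Tagln at 20.1, against 10602 (-8.97), and Pln, which encodes the calcium pump regulator phospholamban, at 0.709, against 813 (-8.90). Pdlim3, Sncg, Palld, Tesc and Myh11 followed, with Myh11 at 18.4 CPM, against 2901. The ratios of the chosen markers are no finding, Tpm2 (110.2, against 2773) and Myl9 (1517, against 5342) included. Outside those markers, desmin, Des, stood at 88.4 CPM in pericytes, against 531, and the cytoskeletal Vim at 141, against 2758.

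Cald1, which encodes the actin-binding caldesmon, was within 2-fold of smooth muscle, at 2899 CPM in pericytes, against 2332. So were Rgs5 (8572, against 4890.0), Rgs4 (2343, against 1521), Notch3 (856, against 828), Ebf1 (1024, against 963), Igfbp7 (5151, against 5176), Gucy1a1 (436, against 539), Gper1 (578, against 532) and Slc38a11 (584, against 630). The ion channel list had 4 of 13 members higher (Kcnj8, Abcc9 and Trpc4 among them), 2 lower (Kcnab1 and Kcnk3) and a median of 0.24, which was -0.04 with TMM factors. Kcnj8 and Abcc9 are genes of the rule that chose the pericytes. The mural transcription factors had 3 higher (Foxf2, Foxd1 and Zic1), Klf2 lower and a median of 0.09, which was -0.19 with TMM factors. The Notch feedback genes Nrarp (123 CPM, against 396) and Nrip2 (8.51, against 299.8) were lower than in smooth muscle, as was Hes1. Vasoactive receptors had 5 of 11 members higher and 0 lower (median 0.66), beside 11.9% and 7.59% of all genes. Solute transporters had 9 of 15 higher and 3 lower (median 1.602), with Atp13a5 of the rule among the higher. Stress genes had 1 of 20 higher and 13 lower (median -1.67).

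The highest ratios over smooth muscle were those of Ptgds, Uchl1, Emcn, Nrxn2, Nodal, Aldh1a1, Slc22a8 and Fzd6. Uchl1 stood at 369 CPM, against 30.2 (3.57), the sialomucin gene Emcn at 169 CPM, against 14.7 (3.44), the neurexin gene Nrxn2 at 187, against 17.6 (3.34), Slc22a8 at 547, against 59.7 (3.18), and the Wnt receptor Fzd6 at 224, against 24.6 (3.14). Emcn was higher still in endothelial rule cells, at 452 CPM. Ptgds stood at 7081 CPM, against 579 (3.61), a ratio that was 1.08 in members with 4 or more markers. Aldh1a1, of retinoic acid synthesis, was at 3.26 in all members and 2.76 in these. The 5 of 7 matrix genes that stood at least 2-fold higher over smooth muscle included Col1a1, at a log2 ratio of 1.65 in all members and -0.86 in those with 4 or more markers, Dcn at 2.54 and 0.53, Col3a1 at 1.38 and 0.68, and Bgn at 1.11 and 0.95. Fn1 differed from these, with 1.98 in all members and 2.03 in those with 4 or more markers. Basement membrane genes were higher in 7 of 15 (median 0.71), with Lamb1 at 118 CPM, against 16.8, and lower for Lama5 (9.93, against 143) and Col18a1.

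**Figure D4:**
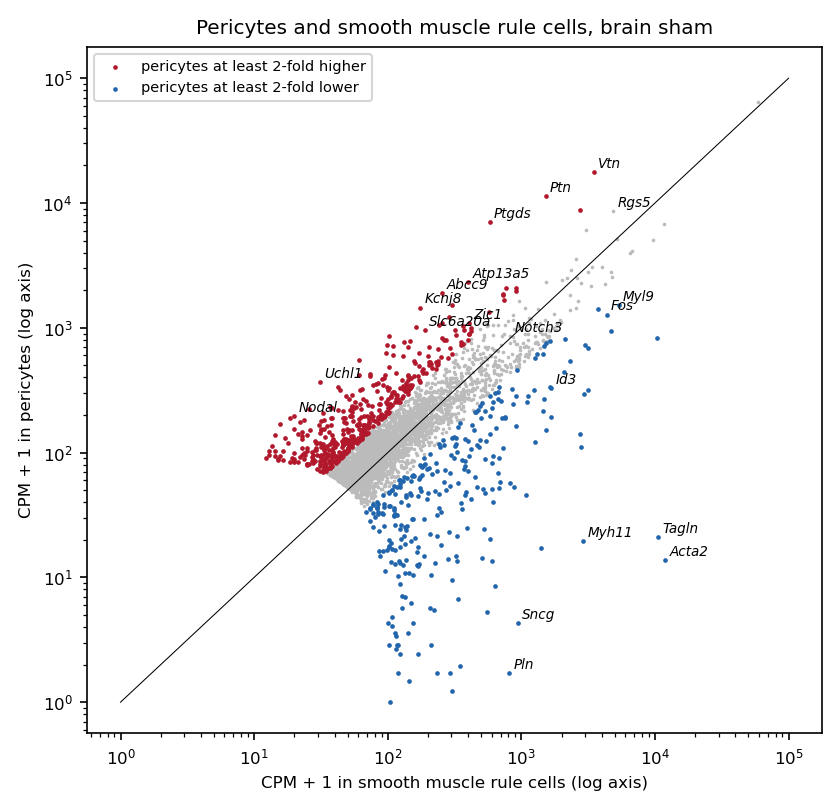
CPM + 1 in brain sham pericytes (vertical, log axis) and smooth muscle rule cells (horizontal, log axis) for the 3793 tested genes; the line marks equality, red points are at least 2-fold higher in pericytes and blue points at least 2-fold lower. Acta2, Tagln, Myh11, Pln and Sncg lie far below the line, Kcnj8, Abcc9, Atp13a5 and Vtn above it, and Rgs5 and Notch3 within 2-fold of it.

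Pericytes also differed among themselves. In 1276 members with at least 4 markers, thinned to 1000 UMIs, the Fano factor (variance over mean, near 1 for counting error alone) had a median of 1.04 over 1900 genes with a mean of at least 0.1 UMIs. Members with 3 markers were left out after their values were seen. Ptgds was the most uneven gene, with a Fano factor of 103.7, a UMI in 11.4% of cells and up to 195 UMIs in a cell. Apod followed at 12.6, with a UMI in 3.92% of cells. Fos (11.6), Hspa1a (7.52), Jun (7.43), Junb (6.41) and Egr1 (4.48), immediate early and heat shock genes known to respond to tissue dissociation, came next together with Malat1 (10.1) and Apoe (5.30). A Fos UMI was seen in 15.2% of these cells, with 0 UMIs in the median cell and up to 30 in the highest. Malat1 ranged between 32 and 96 UMIs from the 10th to the 90th percentile of cells. Among identity genes, Vtn had a Fano factor of 3.35 with a median of 18 UMIs and a highest count of 61, Ptn 2.65 and Rgs5 2.24. The 1292 cells that this set was drawn from included 39 with 4 markers and 19 with at least 3 fibroblast markers. Ptgds and Apod both stood higher in the members with 3 markers, and the part of fibroblast-like cells in their unevenness was not tested.

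The stress genes were nonetheless lower in pericytes than in the other kept cells of the library. Of 20 tested members of the dissociation list 0 were higher and 11 lower, with a median of -1.13. Fos stood at 1274 CPM, against 2840.2, Junb at 693, against 1847, and Jun at 978, against 2106. Hspa1a and Hspb1 were within 2-fold, with Hspa1a at 1053 CPM, against 576. Ribosomal protein genes took 4.61% of pericyte UMIs and 9.24% of those of the other cells, a difference in composition that moves with every ratio, and its part was not tested.

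The same rule found 973 pericytes in the brain peri-infarct library and 414 in brain infarct. All 20 leading genes were at least 2-fold higher in pericytes than in the other kept cells there too, with median log2 ratios of 3.73 and 5.92, beside 3.04 in brain sham, where the genes were chosen. Of all genes averaging 50 CPM, 17.8% in brain peri-infarct and 20.5% in brain infarct were as much higher in pericytes. In the heart libraries 10 of 20 passed 2-fold in peri-infarct (372 pericytes), 11 in infarct (603) and 12 in sham (192), at medians of 1.07, 1.21 and 1.596. The shares over all genes averaging 50 CPM there were 3.76%, 4.92% and 3.1% in the same order. The 20 genes were counted at any level, with Nts at 4 UMIs and Grm3 at 0 in heart sham pericytes. Counts and shares thus rest on unlike filters, and nothing is read from the contrast. Since Kcnj8, Abcc9, Atp13a5 and Vtn are among the 20 and in the rule, their part of the brain counts was fixed by the choice of cells. In the heart this holds for Kcnj8, Abcc9 and Vtn. Atp13a5 had 1 UMI in heart sham, 1 in heart peri-infarct and 0 in heart infarct pericytes, so the choice there hardly used it. 

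Few genes separated brain peri-infarct from brain sham pericytes. Among 3968 tested genes 11 (0.277%) passed 2-fold upward in peri-infarct pericytes and 25 (0.63%) downward, with a median log2 ratio of -0.02. The 6 markers of the rule were all within 2-fold, with Kcnj8 at 1662 CPM in peri-infarct and 1452 in sham pericytes, Abcc9 at 1770.1 and 1907, Atp13a5 at 2205 and 2339.5, and Vtn at 22606 and 17647. The rule chose the cells of both libraries by these markers, so their similar levels were in part fixed by that choice. None of the 19 tested other pericyte genes, 15 transcription factors, 11 ion channels, 11 vasoactive genes or 15 basement membrane genes was 2-fold apart. With 0.277% of all tested genes higher and 0.63% lower, lists this short cannot be told apart from all genes. The limits of the rule also chose which cells of both libraries were compared. Nts, at 88.4 CPM in peri-infarct and 154 CPM in sham pericytes, had a log2 ratio of -0.79.

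The higher genes were led by Igfbp5, a secreted binder of insulin-like growth factors, at 153 CPM in peri-infarct and 27.0 CPM in sham pericytes (2.46). Fxyd5 (125 and 35.5 CPM), a regulator of the sodium pump, and the growth factor Mdk (94.4 and 32.6) were higher too. Igfbp5, Fxyd5 and Mdk stood far higher in sham fibroblast rule cells, at 2250.2, 1188 and 349 CPM. The histone genes Hist1h1e (119 and 33.3 CPM) and Hist1h4d (80.6 and 30.0), Lars2 (1028 and 393) and the chromosome 17 transcript AY036118 (604 and 122) were higher as well. Ndufa4 reached 0.98, at 100.4 and 50.4 CPM, just short of 2-fold.

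Of the 25 lower genes 6 were on the stress list, of whose 18 tested members 0 were higher. Hspa1a stood at 179 CPM in peri-infarct and 1053 CPM in sham pericytes (-2.55), Hspa1b at 89.6 and 530.0 (-2.55), Fosb at 28.9 and 149, Jun at 258 and 978, and Fos at 492 and 1274. The brain infarct pericytes did not continue this order, with Fos at 3686 CPM and Hspa1a at 849 CPM. The chaperone Dnajb1 (37.1 CPM in peri-infarct and 112 in sham pericytes), the phosphodiesterase Pde10a (31.0 and 92.2) and Rapgef4 (130 and 335), which encodes a cyclic AMP sensor, were lower as well. Malat1 was lower at -1.02, with 3.17% of UMIs in peri-infarct and 6.45% in sham pericytes.

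Several technical values moved with this comparison. Xist, the RNA of the inactive X chromosome, had 1425 UMIs (614 CPM) in peri-infarct pericytes and 1 UMI in sham pericytes, and the Y-linked Ddx3y had 110 and 530 UMIs (47.4 and 125 CPM). Of the 973 peri-infarct pericytes 453 carried Xist and no Y-linked UMI, 187 a Y-linked UMI and no Xist, 20 both and 313 neither, so female and male cells were both present there, whereas sham pericytes were male by these genes. The haemoglobin gene Hbb-bs stood at 11.2 CPM in peri-infarct and 721 CPM in sham pericytes. Median depth was 2056 UMIs in peri-infarct and 2800 in sham pericytes. Injury, sex of the animals and library cannot be told apart in these differences.

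Some channel and mural genes were within 2-fold between brain sham and heart sham pericytes and others were not. Kcnj8 stood at 1452 CPM in brain sham and 1095 CPM in heart sham pericytes, Abcc9 at 1907 and 1089, Rgs5 at 8572 and 5646, Cox4i2 at 951 and 555, and Ndufa4l2 at 1848 and 1037. These were each less than 2-fold apart. Kcnj8 and Abcc9 are genes of the rule that chose the cells in both organs, so their closeness was in part fixed by that choice. Pdgfrb was at 1819 and 884 CPM, Higd1b at 1977 and 335, Rgs4 at 2343 and 237, and Notch3 at 856 and 222. Further channel and mural genes were over 2-fold higher in brain sham too, with Cspg4 at 713 and 165 CPM, Gjc1 at 795 and 194, Ano1 at 283 and 80.9, and Cacna1c at 108 and 11.6. Vtn stood at 17647 CPM in brain sham, against 919 in heart sham, and at 719 and 545 CPM in heart peri-infarct and infarct pericytes.

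Zic1 had 4602 UMIs in brain sham and 0 in heart sham pericytes, a ratio of at least 125 with the heart set to its floor of 3 UMIs. The floor, 8.67 CPM over the 192 heart sham cells, limits such folds, and it gave at least 38.4-fold for Ggt1, 22.4-fold for Nodal, 21.7-fold for Trpc4, 16.3-fold for Grm3 and 11.7-fold for Tlr12. Atp13a5, a marker of the rule, had 9896 UMIs in brain sham pericytes, against 1 in heart sham, 1 in heart peri-infarct and 0 in heart infarct. Slc6a20a had 4076 UMIs, against 1, 2 and 0 in the same 3 heart libraries, and Slc22a8 had 2315, against 1, 2 and 1. P2ry14 and Art3 were counted in both organs, with P2ry14 at 1082 CPM in brain sham and 170.5 CPM in heart sham.

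**Figure D5:**
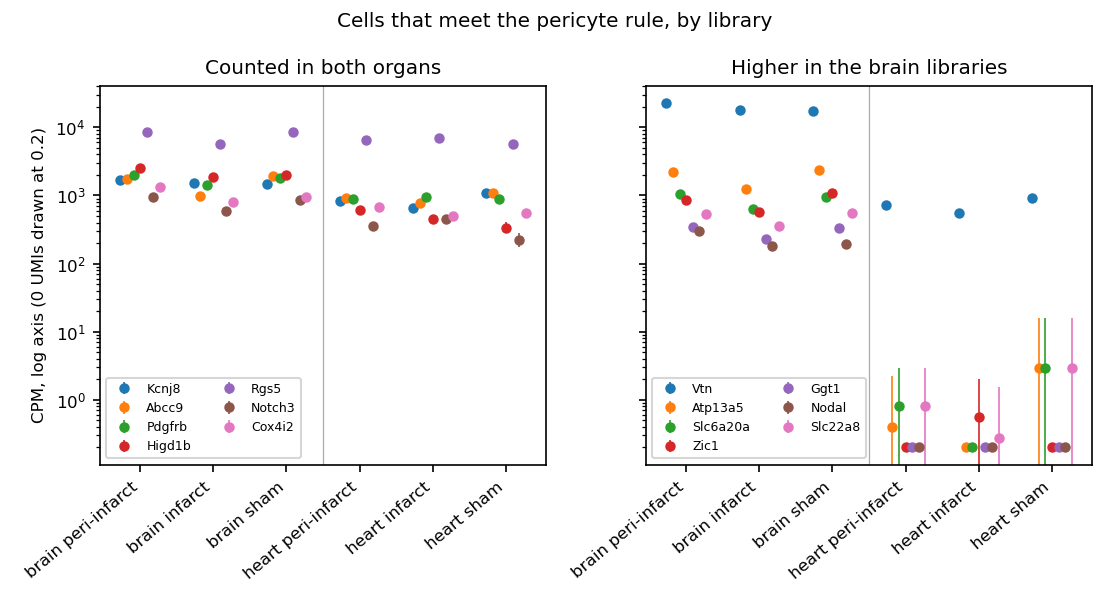
CPM (log axis) in cells that meet the pericyte rule, by library, for genes counted in both organs (left) and genes higher in the brain (right), with exact Poisson 95% intervals and 0 UMIs drawn at 0.2. Kcnj8, Abcc9, Rgs5 and Cox4i2 of brain sham and heart sham were less than 2-fold apart, while Atp13a5, Zic1, Ggt1 and Nodal were at or near 0 in all 3 heart libraries. Kcnj8 and Abcc9 are genes of the rule, so their closeness was in part fixed by the choice of cells.

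The cells that met the rule also differed between the organs in depth and in fibroblast markers. Pericytes in heart sham had a median of 1457 UMIs, against 2800 in brain sham. The 6 fibroblast markers summed to 11187 CPM in heart sham and 1117 CPM in brain sham pericytes. The 6 markers of the rule summed to 4325 and 27141 CPM in the same order. Heart cells are called pericytes here by the rule alone, and the source of their fibroblast RNA was not tested. Xist had 489 UMIs and Ddx3y 0 in heart sham pericytes, so organ, dissociation method, sex and library cannot be told apart.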

How the data were processed

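Gene counts of 6 single-cell 3′ libraries were used as deposited by the authors: whole UMI counts per gene and barcode, made with Cell Ranger 3.0.2 on mm10, with Seurat 3 named as well, per the submitters' processing notes. Filters before deposit are not given in the sources used here. From these counts, cells of a class were summed and scaled to CPM (Python 3.11.15, pandas 2.3.3, scanpy 1.11.5), and log2 ratios were taken of CPM + 1. A gene was tested for size at a mean of 50 CPM over both classes and called at 2-fold. With 1 library a group there are no replicates, no test and no p-value. Poisson and Clopper-Pearson intervals at 95% (scipy 1.17.1) and the floor of 3 counts cover counting error only. Shares were thinned to 1000 UMIs (seed 1). Doublets were kept in the main values, since Scrublet's automatic threshold marked 4 of 2808 brain sham barcodes, and an alternative left out the 63 highest scores, 8 of them members. TMM factors came from edgeR 4.0.16 (R 4.3.3).

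Named genes are those with the most extreme ratios in each comparison, the 12 most abundant, the rule genes and up to 6 members of each list, leaving out ribosomal, mitochondrial, predicted, haemoglobin and sex-linked genes. A few genes that the rule names are not reported here. Other genes, among them Pth1r, Kcnj2 and further list members, were chosen after their values were seen. The members and lists were chosen with earlier results of these data known. Alternatives changed the limits of the rule, the marker set, the comparison cells, the scaling and the filter.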

Additional observations from a re-analysis of the deposited data

How the results depend on the processing

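The member count stayed between 1257 and 1467 under the changed limits of the rule. Against the other kept cells, the calls were 778 lower at a minimum of 20 CPM, 290.0 higher and 240.0 lower at 100 CPM, and 1157 higher and 2567 lower with no filter. Against smooth muscle rule cells, 280.0 were higher with at most 5% mitochondrial UMIs, 269 higher with TMM factors, 800 higher and 448 lower at 20 CPM, 252 and 176 at 100 CPM, and 2252 and 1102 with no filter. Between peri-infarct and sham pericytes, 19 were higher with at least 2 markers, 6 with a mean over cells, 32 higher and 45 lower at 20 CPM, 4 and 15 at 100 CPM, and 391 and 323 with no filter. The filter changes how many genes are counted; the other causes were not tested. Log2 ratios that changed sign against the other kept cells were Ptgds 0.30 and Dcn 0.15 with at least 2 markers, and, with endothelial rule cells alone as comparison, Fcer1g 0.56, C1qa 0.45, C1qb 0.78, C1qc 1.85, Ptgds 0.094, Myh11 0.65, Col1a2 0.98, Dcn 0.47 and the list medians of matrix genes, 0.10, and contractile genes, 1.76. The contractile median was 0.078 with comparison cells of at most 1 marker, and the integrin median -0.42 with no filter. Over smooth muscle, Fxyd5 was 0.22 with at least 2 markers, Col1a1 -0.86 with at least 4, -0.83 without Vtn and -0.80 without Pdgfrb in the marker set, and the cell cycle median 0.31 with no filter. No paired analysis was possible because each group is 1 library. Depth limits genes near 1 UMI per cell and heart folds against the floor.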
